A study of Mus musculus with 99 samples.

Results

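The hearts of 28 classical inbred mouse strains fell into 2 classes by the level of Gdpd3, a gene on chromosome 7. In 10 strains the 1 probe set named for Gdpd3 lay above 7 log2 units, in 18 it lay below 5.5, and 0 lay between these limits. The level itself chose the classes, so the Gdpd3 values are given as a description and are not tested. The question was which other transcripts differ between the classes, on chromosome 7 beside Gdpd3 and elsewhere.

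The 28 strains are those of the 99 arrays whose strain label names neither a recombinant inbred panel (BXD, AXB, BXA or BXH) nor CAST/EiJ or B6cC3-1/KccJ. All were male, untreated, fed chow and 16 weeks old by the growth protocol. A separate age label counts upward from sample to sample across the series, departs from the protocol and was not used as an age. The high class held NON/ShiLtJ, I/LnJ, 129X1/SvJ, MA/MyJ, LP/J, KK/HlJ, RIIIS/J, SM/J, C57L/J and FVB/NJ. The low class held C58/J, DBA/2J, A/J, SEA/GnJ, BALB/cJ, NZB/BlNJ, CBA/J, C57BL/6J, LG/J, NZW/LacJ, AKR/J, BTBR T<+> tf/J, SWR/J, BUB/BnJ, PL/J, C3H/HeJ, CE/J and NOD/ShiLtJ. Heart RNA of each strain was hybridised to 1 Affymetrix HT_MG-430A array, and the deposited values are on the log2 scale. Errors and p-values therefore rest on differences among strains, which technical variation enters too, and strains that share ancestors are not fully independent. The classes were defined by a transcript and not by a genotype, since no genotypes were used here. In whole hearts, fewer cells of a type and less RNA per cell cannot be told apart.

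Gdpd3 encodes a membrane-bound member of the glycerophosphodiester phosphodiesterase domain family, also called GDE7. It acts as a lysophospholipase D, which removes the head group of lysophospholipids and so gives lysophosphatidic acid, a signalling lipid, and can also release N-acylethanolamines. Transcripts of a gene can differ between inbred strains because of a variant close to the gene, and neighbouring genes are often inherited together with it. The nearest genes on the chromosome are therefore described first.

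The sequence upstream of Gdpd3 is shown because the gene is near the floor of the array in one class and among the bright genes in the other. That of Ypel3, the next gene on the array, is shown beside it because Ypel3 lies next to Gdpd3 and its levels overlapped between the classes. Both are from RefSeq on GRCm38.p6, the genome of C57BL/6J, which is in the low class. They cover the 250 bases before the annotated start on the plus strand, Gdpd3 at chr7:126766164-126766413 and Ypel3 at chr7:126776713-126776962.
Gdpd3: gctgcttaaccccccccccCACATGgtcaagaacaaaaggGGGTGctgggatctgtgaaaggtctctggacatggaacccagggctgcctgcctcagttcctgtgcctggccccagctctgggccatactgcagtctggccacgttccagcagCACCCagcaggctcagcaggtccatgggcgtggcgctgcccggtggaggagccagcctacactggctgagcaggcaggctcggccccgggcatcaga
Ypel3: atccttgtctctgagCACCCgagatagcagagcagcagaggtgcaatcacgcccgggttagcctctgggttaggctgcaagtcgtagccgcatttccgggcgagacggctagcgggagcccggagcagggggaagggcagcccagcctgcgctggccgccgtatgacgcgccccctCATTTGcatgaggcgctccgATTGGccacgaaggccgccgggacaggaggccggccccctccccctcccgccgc
Capitals mark motifs found on either strand. The E-box, bound by helix-loop-helix factors, was searched as CANNTG. The box bound by Krüppel-like factors was searched as the letters CACCC. The box bound by the factor NF-Y was searched as the letters CCAAT. No matches overlap. Upstream of Gdpd3 there was 1 E-box and there were 2 CACCC boxes, and upstream of Ypel3 there was 1 match to each of the 3 motifs. Neither window held a TATA box (TATAAA) or a GC box (GGGCGG). Of 32851 RefSeq windows of this length, 66.2% held an E-box, 52.0% a CACCC box, 33.8% a CCAAT box, 12.4% a TATA box and 32.7% a GC box. No sequence of the other strains was used, and a match is a description of letters and not of binding.

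Gdpd3 was 9.65 log2 units in NON/ShiLtJ, 9.73 in I/LnJ, 9.75 in 129X1/SvJ, 9.83 in MA/MyJ and 9.84 in LP/J. It was 9.90 in KK/HlJ, 10.19 in RIIIS/J, 10.23 in SM/J, 10.30 in C57L/J and 10.40 in FVB/NJ. In the low class it ran from 3.47 in C58/J to 4.45 in NOD/ShiLtJ, with a median of 3.73. The strains just inside the limits were therefore NON/ShiLtJ above and NOD/ShiLtJ below, 5.19 log2 units apart, although both strains come from Swiss stock. The class means were 9.98 ± 0.27 in the high class (SD, n = 10) and 3.78 ± 0.24 in the low class (SD, n = 18), a difference of 6.20 log2 units or 73.5-fold. With these values near the floor of the array in the low class, the fold is the one on the deposited scale and not a ratio of molecules. Over the 28 strains the SD of Gdpd3 was 3.04 log2 units, rank 3 among the genes kept, where the median SD was 0.23.

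**Figure D1:**
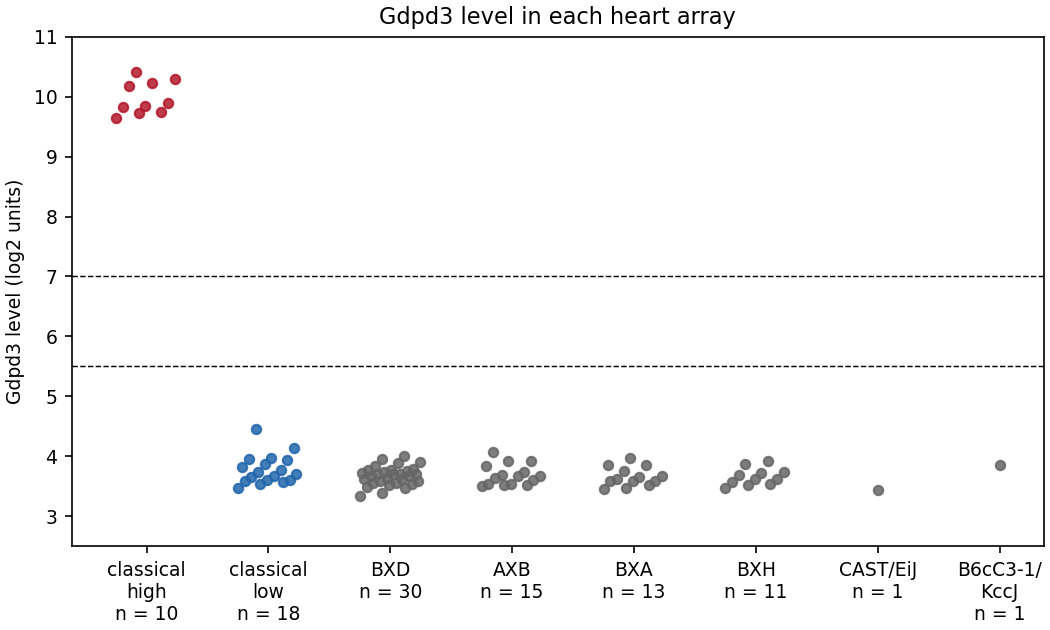
Gdpd3 level in log2 units (y axis) on each of the 99 arrays by group of strains (x axis), where each point is 1 array and the dashed lines are the limits of 7 and 5.5. The 10 high classical strains sit between 9.65 and 10.40, and all other arrays sit below 4.5, the recombinant inbred ones between 3.34 and 4.08.

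No array outside the classical strains reached the high class. Gdpd3 averaged 3.67 ± 0.16 log2 units in the 69 recombinant inbred strains (SD, range 3.34 to 4.08). The 30 BXD strains had a mean of 3.67, the 15 AXB strains 3.69, the 13 BXA strains 3.66 and the 11 BXH strains 3.66. Their parents C57BL/6J (3.67), DBA/2J (3.54), A/J (3.56) and C3H/HeJ (3.97) all belong to the low class. CAST/EiJ was at 3.44 and B6cC3-1/KccJ at 3.85. The planned test of the same split in the recombinant inbred strains, and of its difference from the classical strains, could therefore not be made.

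Related strains were found on both sides of the split. Of the C57-related strains, C57L/J was high and C57BL/6J and C58/J were low. Of Swiss-derived strains, NON/ShiLtJ and FVB/NJ were high and NOD/ShiLtJ and SWR/J were low. 129X1/SvJ and LP/J were high beside BTBR T<+> tf/J, which was low. Of the strains of Japanese or New Zealand origin, KK/HlJ was high and NZB/BlNJ and NZW/LacJ were low. A/J, BALB/cJ and SEA/GnJ were all low, as were C3H/HeJ, CBA/J and DBA/2J. The other 9 strains held 4 high and 5 low.

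The classes were also compared in the number that is each sample's title and in measures of RNA quality and tissue content. The labels do not say what the title number counts. Title numbers ran from 45 to 456 in the high class and from 40 to 407 in the low class. RNA quality was read from control probes, as signal at the 3' end less signal at the 5' end of a transcript. For Gapdh this was -0.31 ± 0.07 in the high class and -0.36 ± 0.08 in the low class, and for actin 2.02 ± 0.28 in the high class and 1.89 ± 0.19 in the low class (SD). Two-sided permutation tests with 100000 resamples gave p = 0.503 for title number, p = 0.121 for Gapdh and p = 0.158 for actin, and an adjusted p of 0.237 or above over these 3 measures. Heart muscle markers were high throughout: the list mean of 14 cardiomyocyte genes ran from 11.86 to 12.06 in the high class and from 11.88 to 12.01 in the low class. Some arrays carried markers of another tissue, with a list mean exceeding that of the median array by over 2 log2 units: 3 of 10 in the high class and 7 of 18 in the low class.

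Gdpd3 chose the classes and was not tested, and no other gene passed the test for a difference between them. Of the 7512 other genes tested, 0 had an adjusted p under 0.05 in limma (Benjamini-Hochberg, background 0%). At an unadjusted p under 0.05 there were 429 genes (5.71%), 258 higher (3.43%) and 171 lower in the high class, beside 375.6 expected by chance. The lowest adjusted p was 0.739. No gene other than Gdpd3 had values that did not overlap between the classes (0 of 7512, background 0%). The median difference over all these genes was 0.0076 log2 units and the median standard error 0.090.

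**Figure D2:**
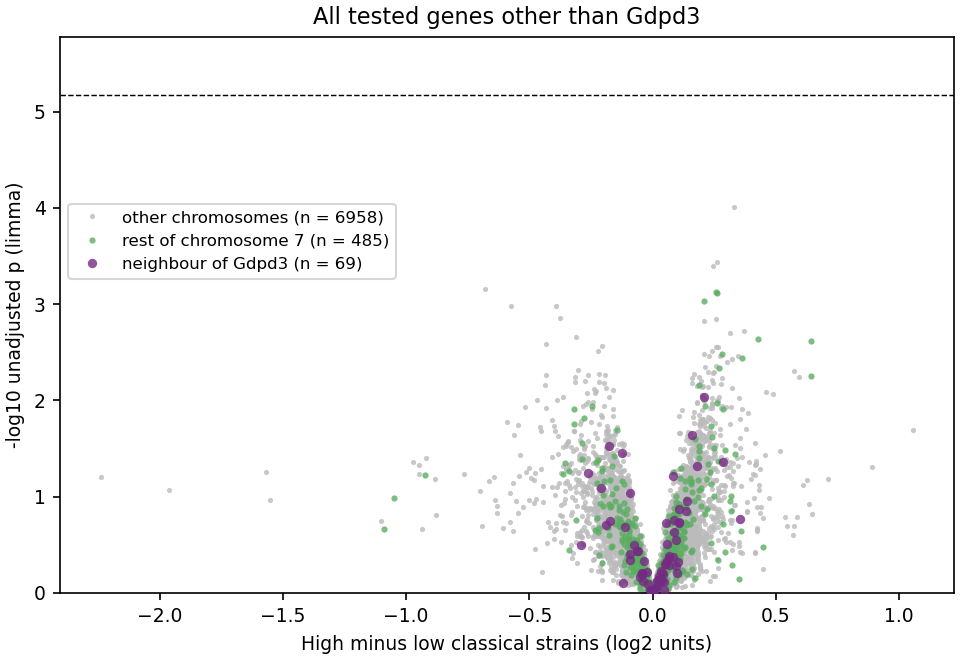
Difference between the 10 high and the 18 low classical strains in log2 units (x axis) against -log10 of the unadjusted limma p (y axis) for the 7512 genes other than Gdpd3, where each point is 1 gene coloured by its place in the genome. The dashed line at 5.18 is the level the top gene alone would need for an adjusted p of 0.05, and the highest point, Parg, lies at 4.01.

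The size of difference that the strains could have shown was measured in 2 ways. Simulated data of this design held 7513 genes with noise independent between genes, of which 66 were changed by 1 log2 unit, 67 by 0.5 and 67 by 0.25. In them limma recovered 97.0% of genes changed by 1 log2 unit, 77.6% of those changed by 0.5 and 31.3% of those changed by 0.25, with 6 false calls. So many changed genes ease the Benjamini-Hochberg threshold. These shares are therefore too high for a gene that changes alone or with few others. In the hearts, the 95% interval of the difference lay within 1 log2 unit either side of 0 for 7388 of the 7512 genes, and within 0.5 for 6723. Most genes changed by 0.25 log2 units and some changed by 0.5 were thus missed in the simulated data, and genes with wide spread could differ by more without a call. A p above the threshold does not show equal levels.

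Around Gdpd3 the transcripts of neighbouring genes overlapped between the classes. Neighbours were taken as the nearest 50 array genes on either side, 100 in all, of which 69 passed the filter on dim genes and 31 did not. Of the 69, 0 were called, 6 had an unadjusted p under 0.05 (8.70%, beside 5.71% of all genes), and 42 were higher and 27 lower in the high class. Their differences ran from -0.29 to 0.36 log2 units, with a median of 0.025. The 31 dim neighbours, fitted without the filter, differed by -0.16 to 0.11 log2 units, and 2 had an unadjusted p under 0.05. The interval lay within 1 log2 unit for 67 of the 69 and within 0.5 for 62, beside the 6.20 log2 units of Gdpd3.

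**Figure D3:**
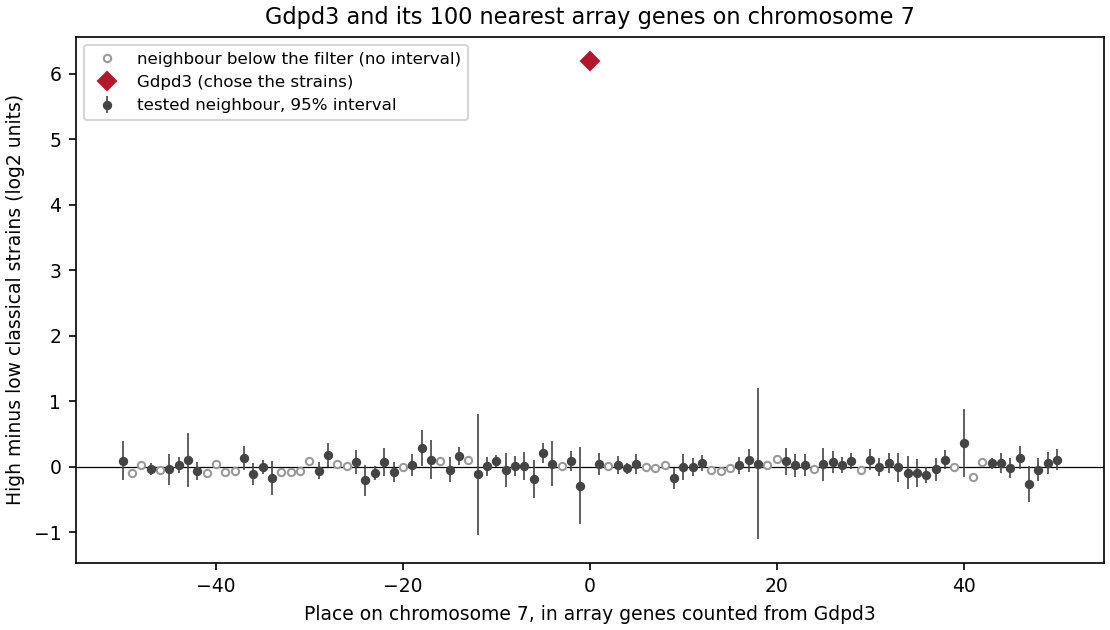
Difference between high and low classical strains in log2 units (y axis) for Gdpd3 and the nearest 50 array genes on either side, by their order on chromosome 7 (x axis, in genes). Filled points carry 95% intervals from limma over 10 and 18 strains, open points are genes below the filter. Gdpd3 stands at 6.20 and its neighbours lie between -0.29 and 0.36.

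Directly after Gdpd3 comes Ypel3, a small zinc-binding protein linked to growth arrest. Ypel3 ran from 8.14 to 8.90 log2 units in the high class (median 8.51) and from 7.86 to 8.73 in the low class (median 8.47). The classes lay on top of each other, and the difference was 0.04 (95% interval -0.13 to 0.22, limma adjusted p = 0.951). Ppp4c, the catalytic subunit of a protein phosphatase, had a median of 6.56 in the high class and 6.53 in the low class, with a difference of 0.025 (interval -0.12 to 0.17). Aldoa, the muscle aldolase of glycolysis, was bright in every strain, from 12.11 to 12.40 in the high class and from 12.12 to 12.37 in the low class, and differed by -0.021 (interval -0.10 to 0.062). Its other 2 probe sets differed by 0.006 and -0.022. Doc2a, a calcium sensor of neurotransmitter release, differed by 0.04 (interval -0.12 to 0.20), and the dim Tbx6, a transcription factor of early mesoderm, by 0.012.

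On the other side the nearest array gene is Coro1a, an actin-binding protein of white blood cells. Coro1a ran from 4.57 in KK/HlJ to 6.88 in I/LnJ in the high class (median 4.86) and from 4.60 in BUB/BnJ to 7.70 in NZB/BlNJ in the low class (median 5.37). Both classes spread widely, and the difference of -0.29 had an interval from -0.88 to 0.30 (limma adjusted p = 0.874). The other, dimmer Coro1a probe sets differed by -0.19 (interval -0.68 to 0.29) and, near the floor of the array, by -0.11 (interval -0.21 to -0.002). Bola2, which takes part in iron-sulphur cluster handling, differed by 0.09 (interval -0.06 to 0.23), and its 4 other probe sets differed by 0.04 to 0.083. Sult1a1, a sulphotransferase of phenols, ran from 8.78 to 10.68 in the high class and from 9.18 to 10.57 in the low class, and differed by 0.05 (interval -0.29 to 0.39). The dim Slx1b, part of a DNA repair nuclease, differed by 0.018.

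Sgf29, a histone-reading subunit of the SAGA complex and the fifth array gene on that side, had the lowest unadjusted p of the neighbours. It ran from 4.96 to 5.57 log2 units in the high class (median 5.06) and from 4.69 to 5.30 in the low class (median 4.88). The classes overlapped between 4.96 and 5.30, and the difference was 0.21 (SE 0.074, limma unadjusted p = 0.00923, limma adjusted p = 0.796). The other 2 Sgf29 probe sets differed by 0.095 and 0.12. The remaining neighbours with an unadjusted p under 0.05, chosen after their values were seen, were Nfatc2ip (0.16), Xpo6 (0.28), an export receptor of actin, and Tnrc6a (0.18), a microRNA silencing factor, and on the negative side Cdipt (-0.18), the phosphatidylinositol synthase, and Stx4a (-0.13), a syntaxin of the plasma membrane. All had an adjusted p of 0.830 in limma. Of the 8 Tnrc6a probe sets, 7 differed in the positive direction, by 0.056 to 0.24, and 1 by -0.005.

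**Figure D4:**
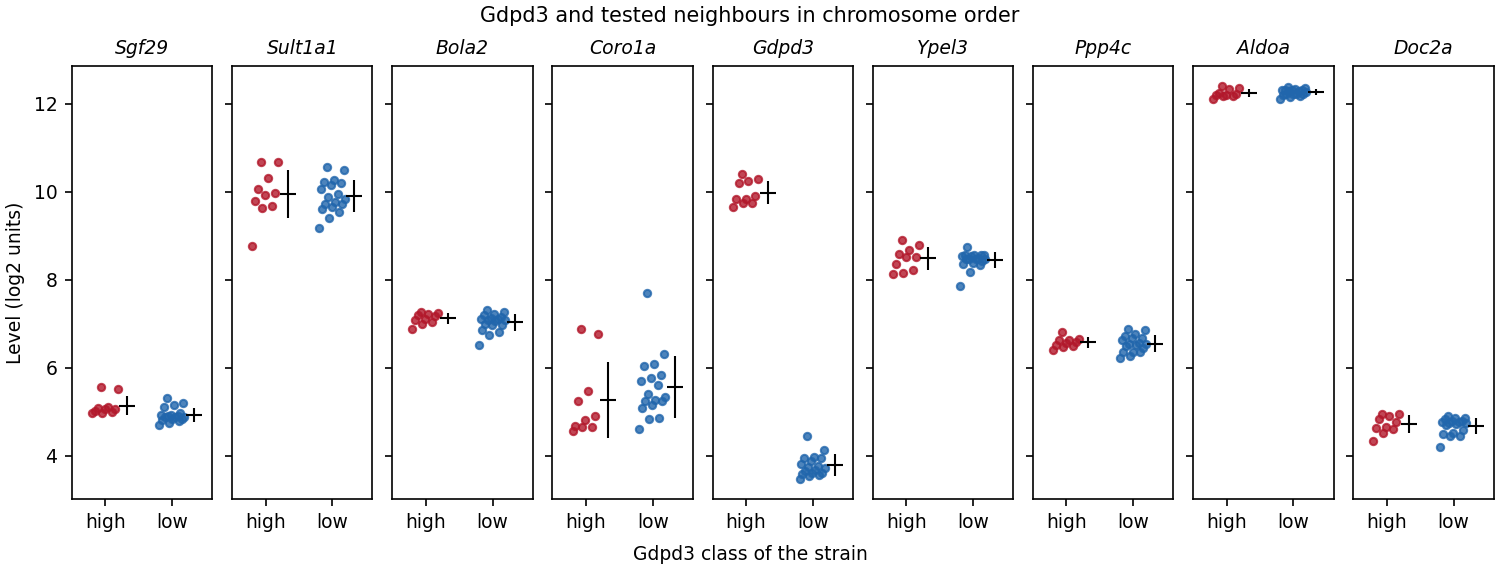
Level in log2 units (y axis) of Gdpd3 and the tested genes among the 5 nearest on either side, in chromosome order from left to right, for high and low classical strains (x axis). Each point is 1 strain, and the bars are the mean and SD of 10 and 18 strains. Gdpd3 separates the classes, and in the other panels the points of the classes overlap.

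Several neighbours varied strongly among the strains, with classes that overlapped. Mylpf, the fast muscle myosin regulatory light chain, had the largest SD among them over the 28 strains (1.49 log2 units). It ran from 3.23 to 8.63 in the high class and from 3.13 to 8.17 in the low class, and its high values were 8.63 in 129X1/SvJ of the high class and 8.17 in CE/J and 7.62 in NOD/ShiLtJ of the low class. The other strains were at 4.03 or below. Atp2a1, the calcium pump of fast muscle, also peaked in 129X1/SvJ, at 7.57. The mean of the fast skeletal muscle list was 8.14 on the 129X1/SvJ array, 7.68 on that of CE/J and 7.49 on that of NOD/ShiLtJ, against class medians of 5.26 and 5.27 in the high and low class. Pycard, the inflammasome adaptor, had a mean of 5.35 ± 0.75 in the high class and 4.99 ± 0.64 in the low class (SD), a difference of 0.36 (interval -0.16 to 0.88). Its second, dim probe set differed by -0.01. Cdr2 reached 6.34 in NON/ShiLtJ, and its class means were 4.42 and 4.32 in the high and low class.

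On the rest of chromosome 7, 0 of 485 genes were called, and 36 (7.42%) had an unadjusted p under 0.05, 24 higher and 12 lower in the high class. On the other chromosomes 0 of 6958 were called and 387 (5.56%) had an unadjusted p under 0.05. Whether these shares differ was not tested. The largest differences among the chromosome 7 genes of lowest p were those of Trim12a (0.64, SE 0.19), a member of the TRIM family, Abcc8 (0.43, SE 0.13), the sulphonylurea receptor of potassium channels, and Pex11a (0.36, SE 0.11), a peroxisome division factor, each with an adjusted p of 0.796 in limma. Trim12a averaged 3.91 log2 units in the high class and 3.26 in the low class, where it was under the filter limit of 3.59 and near the floor of the array. It has near-identical copies beside it that hybridisation may not separate, and its other probe set differed by 0.05. The other Pex11a probe set differed by 0.37.

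Pearson's correlation with Gdpd3 over the 28 strains picked out the 10 genes whose pattern was most like it, given as a description. Since Gdpd3 has 2 separate levels, such a correlation mostly restates the difference between the classes. The highest was 0.66 for Parg on chromosome 14, the enzyme that removes poly(ADP-ribose) chains. Parg ran from 4.64 in I/LnJ to 5.40 in LP/J in the high class (median 5.14) and from 4.43 in C57BL/6J to 4.91 in SEA/GnJ in the low class (median 4.73). Of the 10 high strains, 7 lay above every low strain and the other 3 among them. The difference was 0.33 log2 units (SE 0.074, interval 0.18 to 0.48, limma adjusted p = 0.739). Within the classes the correlation was -0.12 over the 10 high strains and 0.03 over the 18 low strains, and Parg averaged 4.74 ± 0.20 (SD) in the 69 recombinant inbred strains, which entered no test.

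After Parg came Spout1, an RNA methyltransferase (0.65), Ybx3, a cold-shock domain protein (0.63), and the chromosome 7 genes Timm50 (0.62), a receptor of mitochondrial protein import, Prr12 (0.62) and Crtc3 (0.61), a coactivator of CREB. None of these chromosome 7 genes is among the nearest 100. Negative correlations belonged to Ctss (-0.59), the lysosomal protease cathepsin S, Lgals3bp (-0.58), a galectin-binding secreted protein, and Sema3b (-0.58), a semaphorin, and Gpn1 (0.58), a GTPase of RNA polymerase import, closed the list. Ctss ran from 3.71 to 5.59 in the high class and from 4.43 to 6.34 in the low class, and 8 high strains lay below every low strain, while I/LnJ of the high class stood at 5.59. Its difference was -0.68 (SE 0.18, limma adjusted p = 0.796). It averaged 4.46 in the recombinant inbred strains, which entered no test. All 10 had an adjusted p of 0.739 or above. Sema3b differed by -0.39 at the probe set used here, and by -0.21 and 0.074 at its others. Spout1 differed by 0.24 and Prr12 by 0.26, against 0.086 and 0.049 at their other, dim probe sets. Within the 10 high strains the correlation with Gdpd3 ran from -0.62 for Lgals3bp to 0.73 for Ybx3, and within the 18 low strains from -0.34 for Ybx3 to 0.15 for Spout1.

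**Figure D5:**
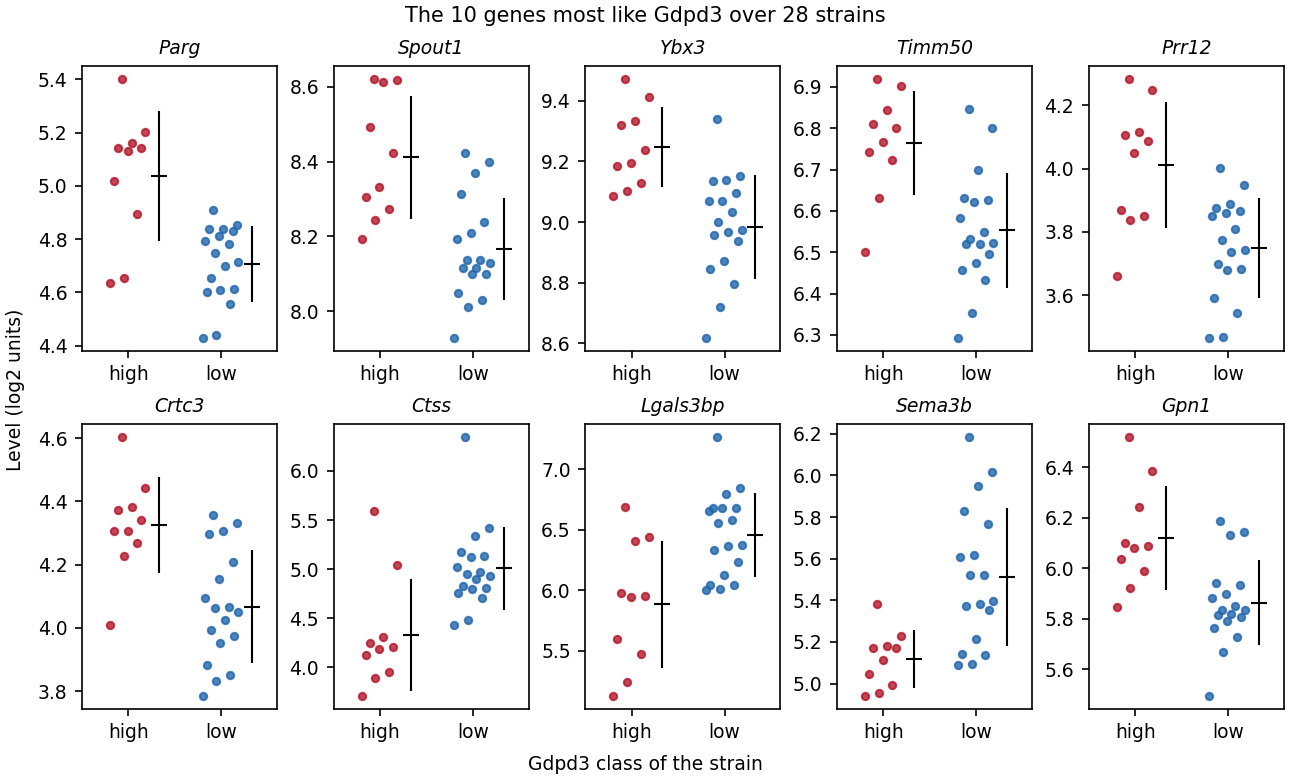
Level in log2 units (y axis) of the 10 genes most correlated with Gdpd3, for the 10 high and 18 low classical strains (x axis). Each point is 1 strain and the bars are the mean and SD. In Parg 7 of the 10 high strains lie above every low strain, and in every panel at least 2 do not.

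The relatives of Gdpd3 were measured by 4 genes, and 0 of 4 were called. Gde1, which releases N-acylethanolamines and lies on the same chromosome outside the nearest 100 genes, averaged 7.86 ± 0.11 log2 units in the high class and 7.73 ± 0.32 in the low class (SD), a difference of 0.13 (interval -0.08 to 0.34). Gdpd1, also a lysophospholipase D, averaged 5.29 ± 0.63 in the high class and 5.06 ± 0.50 in the low class, a difference of 0.23 (interval -0.19 to 0.65), and 0.069 at its other probe set. Gdpd5, which releases proteins from their lipid anchor, differed by -0.013 (interval -0.17 to 0.14). Gpcpd1, which breaks down glycerophosphocholine, differed by -0.05 (interval -0.24 to 0.14). The median of the 4 was 0.057, beside 0.0076 over all genes.

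Genes that make, use or sense lysophospholipids and N-acylethanolamines were not called either, 0 of 21 tested, with 8 higher, 13 lower and a median of -0.028. Mboat2, an acyltransferase of lysophospholipids, was the 1 gene of the 21 with an unadjusted p under 0.05, beside 5.71% of all genes, so the count says nothing about the list. It averaged 5.03 in the high class and 4.54 in the low class, a difference of 0.49 (SE 0.17, limma adjusted p = 0.796). Lpar1, a receptor of lysophosphatidic acid, differed by -0.09 (SE 0.10). Plpp3, a phosphatase that breaks down lysophosphatidic acid, differed by -0.08 (SE 0.10). The lysophospholipases Lypla1 and Lypla2 differed by 0.001 and -0.028, and Mgll, the monoacylglycerol lipase, by 0.09. The receptors Lpar2, Lpar3 and Lpar4 were below the filter, with class means between 3.16 and 3.26 log2 units in both classes.

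Among cell type lists, 0 genes were called in any. For the thymus list this had to be so, as 0 of its 5 array genes passed the filter. Of the squamous list only 2 of 9 were tested. The airway and macrophage lists are given with their counts, beside 3521 of all 7512 genes that were lower in the high class. All 8 tested airway genes were lower (median -1.32, unadjusted p above 0.05 for each), such as Scgb1a1, the secretoglobin of club cells, with a mean of 4.85 ± 2.02 in the high class and 7.09 ± 3.56 in the low class (SD, difference -2.24, SE 1.16). The list mean ran from 3.25 to 6.00 in the high class and from 3.24 to 9.26 in the low class. In the low class CBA/J had 9.26, DBA/2J 8.21, CE/J 7.47 and NOD/ShiLtJ 7.19. The 8 genes were read on the same arrays, so they are not 8 independent results. Below the filter, Sftpa1 differed by -0.29 and Foxj1 by 0.098. Of 12 tested macrophage genes 10 were lower, with a median of -0.23. The 2 higher ones were Cd163, by 0.097 (SE 0.11), and Lyve1, by 0.11 (SE 0.23). The largest negative differences were those of C1qa, a complement subunit (-0.40, SE 0.16), and Lyz2, a lysozyme (-0.35, SE 0.15). Both had an adjusted p of 0.830 in limma. Over 14 cardiomyocyte genes the median difference was 0.013, with values from -0.019 to 0.14.

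Markers of other tissues are given beside the Gdpd3 values because 3 arrays carried both squamous and fast skeletal muscle markers. The 2 low strains with the highest Gdpd3, NOD/ShiLtJ (4.45) and CE/J (4.13), had squamous list means of 6.63 and 7.19, while the low class median was 3.26 over 9 genes. Their fast skeletal muscle means were 7.49 and 7.68, against a low class median of 5.27, and their airway means 7.19 and 7.47, against 4.78. In the high class the list mean was 7.86 in 129X1/SvJ, whose Gdpd3 was 9.75, and the class median was 3.23. The other 9 high strains had Gdpd3 between 9.65 and 10.40 with squamous list means of 3.32 or below. Among them C57L/J had an airway list mean of 6.00, against a high class median of 3.66. RIIIS/J had a liver list mean of 5.84, against a high class median of 3.46. The part of any of these tissues in the Gdpd3 level was not tested.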

How the data were processed

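The deposited values are log2 expression values, made by the authors with GCOS and RMA per the submitters' processing notes; versions and a genome build are not given in the sources used here. The table holds 22416 probe sets, of which 89 are controls; 17783 have 1 gene symbol, 284 several and 4349 none in the platform annotation used here. Of those with 1 symbol, 17759 matched RefSeq (GRCm38.p6), which gave the order of genes. Each gene was represented by its brightest probe set, and 7513 of 11725 genes were kept, those whose mean over all arrays exceeded 3.59, the 40th percentile. Array medians ran from 3.975 to 4.069. The number of arrays limits the precision.

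High and low classical strains were compared with limma 3.58.1 (lmFit, eBayes) in R 4.3.3, with Benjamini-Hochberg adjustment over all genes other than Gdpd3. The method was tested on simulated data. Figures and permutation tests used Python 3.11.15, scipy 1.17.1 and matplotlib 3.10.9. Genes named were called neighbours, the largest called differences, genes without overlap, the 10 most correlated with Gdpd3, the GDPD family, called list members and the 5 nearest array genes on either side. As nothing was called, the neighbours and chromosome 7 genes of lowest p, the most variable neighbours, the largest differences and some list members were added after their values were seen. The classes, members and gene lists were chosen with earlier results of these data known. Alternatives covered filters, probe sets, variance models, scaling, RNA quality, title number, ancestry and left-out strains. The split could not be fitted in recombinant inbred strains, as none was high.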

Additional observations from a re-analysis of the deposited data

Results flagged for a closer look

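In the 10 Gdpd3-high strains, 51 genes were checked for a strain that stood apart from the rest by Dixon's test (critical value 0.466), and 8 had one. Chance gives about 1 in 20 groups, but 6 of these 8 genes (all but Tnrc6a and Nfatc2ip) were picked for a wide spread or a large difference, so that rate is no yardstick for the count. Mylpf was 8.63 log2 units in 129X1/SvJ, with the next strain at 4.03, and Atp2a1 was 7.57 in 129X1/SvJ, with the next at 3.85. The fast skeletal muscle list mean of that array was 8.14. Baiap2l1 was 10.82 in NON/ShiLtJ, with the next at 6.56, and Cdr2 was 6.34 in NON/ShiLtJ, with the next at 5.11. In C57L/J, Cyp2a5 was 6.53, the highest value of the high class, and Bpifb1 was 4.04, with the next at 3.70, on an array whose airway list mean was 6.00. Tnrc6a was 9.17 in LP/J, with the next at 8.73, and Nfatc2ip was lowest in I/LnJ at 3.83, with the next at 4.21.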

How the results depend on the processing

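Under 43 alternatives, 0 genes and 0 neighbours were called in limma. A split at the midpoint of the limits is among them. It repeats the main fit, since 0 strains lay between the limits. At an unadjusted p under 0.05 there were 429 genes, against 297 to 586 under the alternatives that tested the same genes with other models or strains; leaving out 1 strain gave 327 to 595. More features gave more such results: 616 of 11724 without the filter, 982 of 17782 over every named probe set and 1231 of 22326 with unnamed ones. The actin covariate and the unnamed probe sets were chosen after seeing the data. The lowest adjusted p was 0.0637, for Parg without I/LnJ (difference 0.38), 0.0940 for Parg without C57L/J, and 0.220 to 0.999 under the other 15 alternatives. Of 1107 differences of 27 named genes, all moved by less than the spread between strains, and 20 turned sign, none of them among the 10 genes most correlated with Gdpd3. That spread is a wide limit. Leaving out 1 strain can hardly move a difference so far, and another filter or variance model leaves it unchanged. Neighbourhoods of 25 or 100 genes on either side also held 0 called genes. The fits in recombinant inbred strains were not run, because all 69 were low. No paired analysis was possible because the labels give no replicate numbers that the classes share.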

Other observations

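Ano10, a member of the anoctamin family, had the largest positive difference of the genes tested. It averaged 9.58 ± 1.54 log2 units in the high class and 8.53 ± 0.89 in the low class (SD, difference 1.06, SE 0.43, limma adjusted p = 0.830). Its values ran from 7.50 to 12.17 in the high class and from 5.56 to 9.49 in the low class.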
